A study of Zea mays with 6 samples.

Results

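The 5 genes described here encode carriers of the plastid envelope that move the acids of C4 photosynthesis in maize: the dicarboxylate transporters OMT1 (GRMZM2G383088), DCT1 (GRMZM2G040933) and DCT2 (GRMZM2G086258), and the phosphoenolpyruvate (PEP)/phosphate translocators (PPT) GRMZM2G174107 and GRMZM2G066413. They were chosen by gene identifier, and every histone mark region whose nearest gene in the deposited tables is one of them was taken with them, which gave 5 of 110149 gene features and 15 of 76642 regions. RefSeq synonyms carry the names of OMT1, DCT1 and DCT2; the PPT names are not in the reference table used here and rest on the definition of the gene set. RefSeq lists DCT2 under the synonyms ZmpDCT2 and ZmpDCT3, so reads of a near-identical copy, if one exists, may be counted together.

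All samples came from the third leaf of B73, a maize inbred line, harvested 13 to 14 days after sowing from plants kept under a cycle of 16 h light (25 °C) and 8 h dark (20 °C). The base, the lowest 1 to 2 cm of leaf without access to light, was compared with the maturing zone, which was 4 cm of the lit blade, cut at its middle from those leaves. Transcripts (poly(A) RNA sequencing, pools of 6 plants) were available as read counts of 2 libraries per zone, named A and B. Acetylation of histone H3 at lysine 9 (H3K9ac) and trimethylation at lysine 4 (H3K4me3) were measured by chromatin immunoprecipitation and sequencing on pools of 10 plants and were available as the authors' averages per zone. The 2 zones differ in age and in light together, and these cannot be told apart.

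In C4 leaves of the maize type, mesophyll cells fix CO2 into oxaloacetate, reduce it to malate inside their chloroplasts and pass malate to bundle sheath cells, where it is decarboxylated beside Rubisco. The cycle therefore needs carriers at several envelope crossings. OMT1 exchanges oxaloacetate and malate, and earlier work on maize placed OMT1 and DCT1 in mesophyll and DCT2 in bundle sheath cells, where DCT2 serves malate entry into the chloroplast. PPT proteins exchange PEP for phosphate; in mesophyll cells they release the PEP made in the chloroplast by pyruvate orthophosphate dikinase (PPDK), and in other plastids they can import PEP for the synthesis of aromatic compounds. H3K9ac and H3K4me3 are marks found near the start of active genes.

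The markers differed between the zones in the direction of the tissue labels. The mesophyll markers were PEP carboxylase, a carbonic anhydrase, PPDK and NADP-malate dehydrogenase. These, and the bundle sheath markers NADP-malic enzyme and PEP carboxykinase, are among the C4 cycle genes described below. Their sums are therefore not separate from that result. The summed level of 4 mesophyll markers, as read share (CPM) scaled by edgeR's TMM method, was 128.4 in base library A, 157.9 in base library B, and 65745 and 97516 in the maturing zone. Bundle sheath markers, also 4, summed to 194.1 and 518.3 in the base and 36745 and 57950 in the maturing zone. The replication genes MCM6 and MCM7 together were at 124.0 and 60.2 in the base and 0.17 and 0.30 in the maturing zone. The single vascular marker SUT1 was at 7.94 and 26.1 in the base and at 991.5 and 2143 in the maturing zone, and the single epidermis marker GL1 at 0.65 and 2.29 against 160.7 and 571.4. Because these are bulk samples, fewer cells of a type and less RNA per cell cannot be told apart, and the part of cell composition in the results below was not tested. Depth was 18325106 to 50657759 exon reads per library.

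All 5 transporter genes rose from base to maturing zone (5 of 5 called higher at an edgeR adjusted p under 0.05, against 13.5% of the 26787 genes tested), and the libraries of the zones did not overlap for any of them. The median log2 change of the 5 was 4.10, beside -0.13 over all genes tested. Levels are given below as the authors' RPKM, a read density that divides by exon length and library size and so allows genes to be compared. Changes are log2 differences from the edgeR fit, maturing zone minus base, with their standard error. The 2 are scaled differently: the fit uses TMM, which RPKM does not. For each of the 5 genes the fold from the fit is therefore larger than the ratio of its mean RPKM. With library totals in place of TMM the log2 changes ran from 2.08 (DCT1) to 5.98 (GRMZM2G066413), against 3.17 and 7.15 with TMM. All 5 were still called higher. The size of each fold given below thus depends on the scaling.

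OMT1 stood at 28.9 RPKM in base library A and 48.5 in base library B, and at 222.0 and 161.2 in maturing zone libraries A and B; this order, A before B, is kept below. Both maturing zone libraries lay above both base libraries, and the log2 change was 3.43 ± 0.69 (SE, 2 libraries in each zone; adjusted p = 0.0231 from edgeR), or 10.8-fold. DCT1 stood at 13.9 and 18.9 RPKM in the base and at 87.5 and 50.0 in the maturing zone. Its change of 3.17 ± 0.58 (edgeR adjusted p = 0.0192), or 9.02-fold, was the smallest of the 5. DCT2, the bundle sheath carrier, stood at 33.1 and 25.3 RPKM in the base and at 767.6 and 262.6 in the maturing zone. The spread between its maturing zone libraries was wide, yet the lower of them was far above both base libraries; the change was 5.23 ± 0.87 (edgeR adjusted p = 0.0161), or 37.5-fold.

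The PPT gene GRMZM2G174107 was the most abundant of the 5 in every library, with 120.1 and 115.2 RPKM in the base and 1266 and 610.4 in the maturing zone. Its log2 change was 4.10 ± 0.88 (edgeR adjusted p = 0.0261), or 17.2-fold. The other PPT gene, GRMZM2G066413, was nearly silent in the base, at 1.08 and 2.81 RPKM (89 and 124 reads), and reached 103.8 and 139.6 RPKM in the maturing zone. It had the largest change of the 5, 7.15 ± 0.97 (edgeR adjusted p = 0.0136), or 141.6-fold, and moved from the 26.0th to the 97.8th percentile of the tested genes by mean RPKM. In the authors' deposited table the fold changes of OMT1, DCT1, DCT2, GRMZM2G174107 and GRMZM2G066413 were 9.99, 8.40, 34.93, 15.96 and 130.55, all with an FDR under 0.05, which 3.38% of the 110149 features met in that direction.

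**Figure D1:**
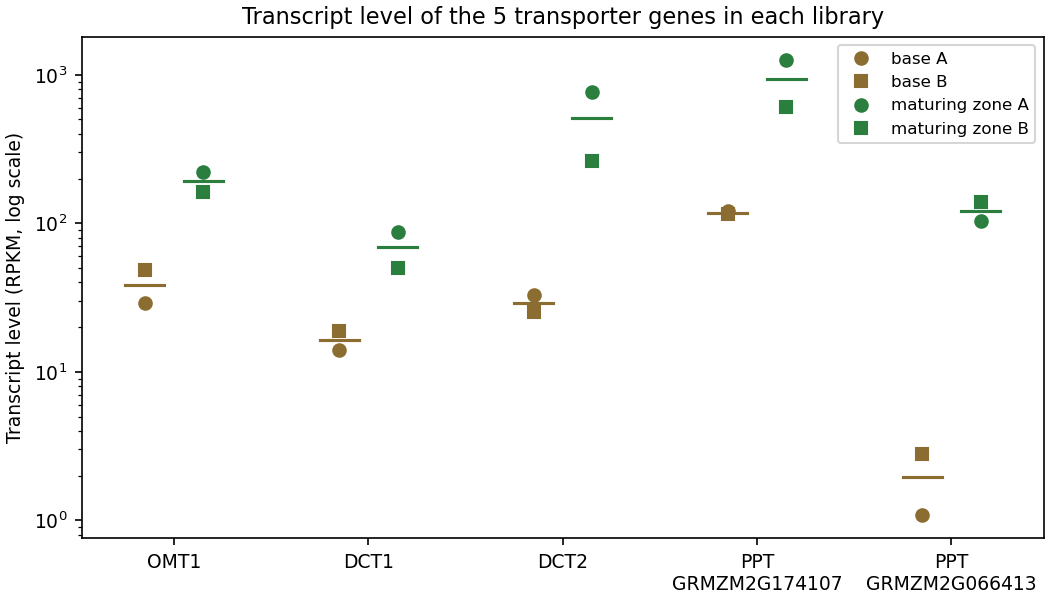
Transcript level (RPKM, log axis) of the 5 transporter genes; circles are library A, squares library B, brown the base and green the maturing zone, and a line marks the mean of the 2 libraries. For every gene both maturing zone libraries lie above both base libraries, from 50.0 RPKM upward for DCT1 and from 103.8 RPKM upward for GRMZM2G066413, which starts at 1.08 and 2.81 RPKM.

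The order of the levels changed between the zones. In the base it was GRMZM2G174107, then OMT1 and DCT2, whose libraries overlapped, then DCT1 and last GRMZM2G066413. In the maturing zone GRMZM2G174107 and DCT2 overlapped at the top, followed by OMT1, GRMZM2G066413 and DCT1, and these last 3 did not overlap with each other or with the genes above them. GRMZM2G066413 thus passed DCT1, from under 3 RPKM in the base to above both DCT1 libraries in the maturing zone.

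Ratios between 2 of the genes within a library do not depend on how libraries are scaled. The ratio of DCT1 to DCT2 was 0.42 and 0.75 in the base and 0.11 and 0.19 in the maturing zone, without overlap. OMT1 relative to DCT2 was 0.87 and 1.92 in the base and 0.29 and 0.61 in the maturing zone, so OMT1 and DCT2 were of similar level in the young tissue and DCT2 led in the blade. OMT1 relative to DCT1, the other mesophyll carrier, was 2.08 and 2.57 in the base and 2.54 and 3.22 in the maturing zone; the zones overlapped, and within either letter the maturing zone had the higher ratio.

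Between the translocators, GRMZM2G174107 exceeded GRMZM2G066413 by 111.2-fold and 41.0-fold in the base and by 12.2-fold and 4.37-fold in the maturing zone. Of the summed RPKM of the 5 genes, GRMZM2G174107 made up 61.0% and 54.7% in the base and 51.7% and 49.9% in the maturing zone. The share of DCT2 was 16.8% and 12.0% in the base and 31.4% and 21.5% in the maturing zone, and that of GRMZM2G066413 was 0.55% and 1.33% against 4.24% and 11.4%. With 2 libraries against 2, an exact two-sided permutation test of a ratio cannot go below p = 0.333, so these ratios are given as values.

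Without base library A the calls of OMT1 (edgeR adjusted p = 0.0872), DCT1 (0.0763) and GRMZM2G174107 (0.0613) were lost, with log2 changes of 3.02, 2.87 and 4.01. DCT2 was at 4.63 without maturing zone library A, and GRMZM2G066413 at 6.54 without base library A and 8.15 without base library B.

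The regions carrying the marks show where the acetylation moved with the transcripts and where it did not. Coordinates are those of the deposited tables on B73 RefGen_v3, signals are the authors' average normalized reads per region, and gained and lost mean higher and lower in the maturing zone at the authors' FDR under 0.05. No strand or gene start was available on this build, so regions are placed relative to each other and not as promoter, exon or intron. Of the 11 H3K9ac regions 6 gained, 3 lost and 2 were not called, while over all 43734 H3K9ac regions 33% gained and 33.8% lost. With a minimum of 2-fold, 2 gained and 0 lost, against 19.7% and 20.1% over all regions. None of the 4 H3K4me3 regions was called, against 11.3% gained and 14.3% lost over all 32908 H3K4me3 regions.

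The single H3K9ac region of OMT1 (chr10:28401541-28402279) had a signal of 542.9 in the base, which was 349.9 in the maturing zone, a 1.55-fold loss in the authors' deposited table (FDR 0.00317). Its base signal was above that of 84.5% of all H3K9ac regions. Acetylation was therefore lower where the transcript was 10.8-fold higher. No H3K4me3 region is assigned to OMT1, but one assigned to the low-confidence gene model GRMZM5G858158 (chr10:28401306-28402201) overlaps 660 bp of the 738 bp of this region. That H3K4me3 region went from 1092 to 873.8 in the authors' deposited table, with an FDR of 0.616. GRMZM5G858158 had 0 and 2 reads in the base and 1 and 1 in the maturing zone.

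DCT1 had 4 H3K9ac regions within 5913 bp, all with lower signal in the maturing zone. The strongest (chr2:188701695-188702355) had 834.7 in the base, more than 97.8% of all H3K9ac regions, with 445.4 left in the blade zone, a 1.87-fold loss (authors' deposited FDR 4.2e-11). The next along the chromosome (chr2:188703604-188704280) was weak and went from 95.6 to 69.3, a 1.38-fold loss with an authors' deposited FDR of 0.0454. The remaining regions (chr2:188705842-188706528 and chr2:188707014-188707608) had 383.3 and 289.3 in the base and 289.1 and 233.1 in the maturing zone, with authors' deposited FDR of 0.203 and 0.109. H3K4me3 was present over the strongest of the 4, covering all of its 660 bp, at 490.8 in the base, against 438.2 in the maturing zone (authors' deposited FDR 0.825). DCT1 thus rose 9.02-fold in transcript with no acetylation gain in any of its regions.

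DCT2 had 2 H3K9ac regions 10036 bp apart, and both gained modestly. The stronger (chr1:181906809-181907750) went from 522.2 to 703.7, a 1.35-fold gain (authors' deposited FDR 0.00308), and the weaker (chr1:181896169-181896773) from 164.0 to 269.4, a 1.64-fold gain (authors' deposited FDR 3.6e-05). Among the 14442 gained H3K9ac regions, 7.08% and 25.4% had a smaller fold. The H3K4me3 region over the stronger one (chr1:181906975-181907803) ran the other way, from 614.2 to 334.8, with an authors' deposited FDR of 0.0559, so that it was not called. A region with a far larger gain, from 1.97 to 249.6, begins 1824 bp beyond the outermost DCT2 mark region (chr1:181909627-181910247). The deposited table assigns this region to GRMZM2G086285, which had 40 and 19 reads in the base and 109 and 28 in the maturing zone (log2 change 2.27, edgeR adjusted p = 0.0756), far fewer than DCT2 with 84104 and 10117 reads in the maturing zone. Just beyond it GRMZM2G086285 had another H3K9ac region (chr1:181910799-181911732), which went from 610 to 711.9 (authors' deposited FDR 0.161). An H3K4me3 region of that gene (chr1:181910734-181911527) went from 135.2 to 91.4 (authors' deposited FDR 0.305). Which of the 2 genes the region with the large gain serves was not tested.

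The PPT gene GRMZM2G174107 had 1 region of each mark, and the H3K4me3 region covered the whole H3K9ac region. H3K9ac (chr1:221539063-221539650) went from 287.0 to 362.4, a 1.26-fold gain close to the threshold (authors' deposited FDR 0.0339); only 1.22% of the gained regions had a smaller fold. H3K4me3 (chr1:221538992-221539846) went from 356.1 to 526.1 with an authors' deposited FDR of 0.284. The most abundant of the 5 transcripts in both zones was therefore accompanied by the smallest acetylation gain.

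GRMZM2G066413 was the only one of the 5 with H3K9ac gains of more than 2-fold. Its 3 regions went from 23.3 to 72.8 (chr3:12294585-12295248, 3.12-fold), from 85.7 to 497.0 (chr3:12296695-12297287, 5.80-fold) and from 262.3 to 517.2 (chr3:12297354-12298114, 1.97-fold), each gained in the authors' deposited table. The region with the 5.80-fold gain lies 67 bp from the next one, and a single H3K4me3 region (chr3:12296838-12298020) spans most of both. H3K4me3 there was already 532.2 in the base, more than 89.4% of all H3K4me3 regions, and 656.0 in the maturing zone (authors' deposited FDR 0.618). The transcript was nearly silent in the base while this mark was in its upper range. The base signals of the 3 H3K9ac regions, in chromosome order, exceeded 4.51%, 24.1% and 54.9% of all H3K9ac regions, so only the first and second of them were low.

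**Figure D2:**
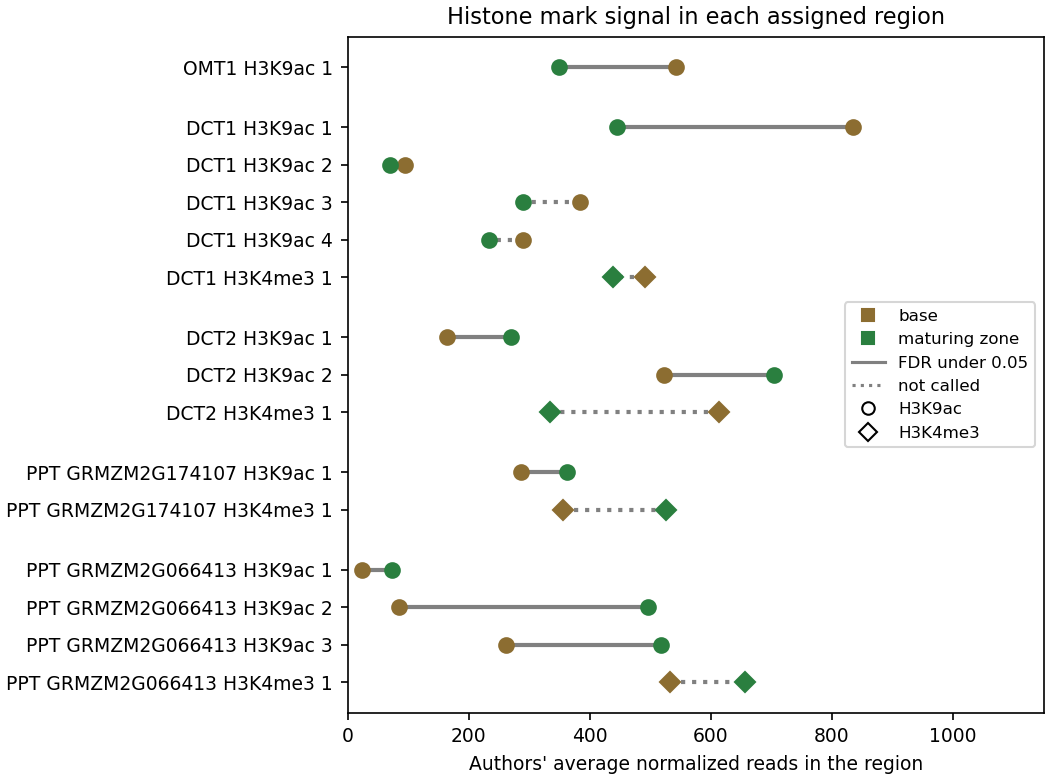
Authors' average normalized reads in each H3K9ac (circles) and H3K4me3 (diamonds) region assigned to the 5 genes, in the base (brown) and the maturing zone (green); solid lines mark an FDR under 0.05, dotted lines regions not called. Regions are numbered along the chromosome. OMT1 and DCT1 run from high base values (542.9 and 834.7 at the strongest region) to lower ones, and GRMZM2G066413 runs from 85.7 to 497.0 at its second H3K9ac region.

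**Figure D3:**
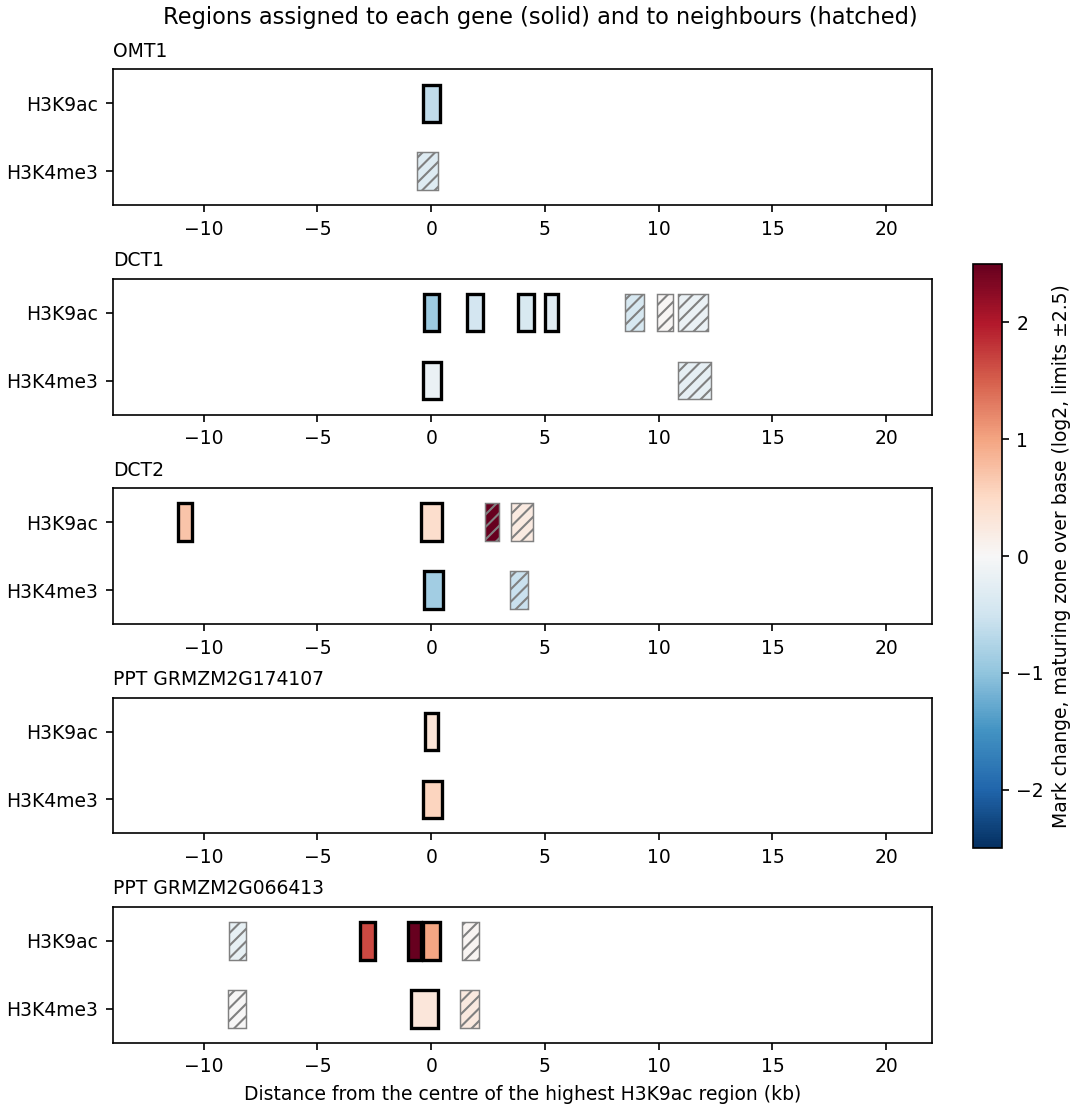
Mark regions of each gene (thick outline) and regions assigned to neighbouring genes within 20 kb (hatched), by distance in kb from the centre of the gene's highest H3K9ac region, with the direction of increasing coordinates to the right; colour is the log2 change, red higher in the maturing zone, with limits at the ends of the scale. The darkest red region beside DCT2 is the one assigned to GRMZM2G086285 (1.97 to 249.6), and the hatched H3K4me3 region under OMT1 is the one assigned to GRMZM5G858158.

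Transcripts rose without any H3K9ac gain at 2 of the 5 genes, OMT1 and DCT1. The H3K9ac calls rest on the authors' scaling, which is not given, and whether another scaling would change them was not tested. Over all 2991 genes that were called higher and had an H3K9ac region, 23.8% had no gained region, so the pattern was common among rising genes, and with 5 genes a count of 2 marks nothing particular to the carriers. Both genes also had a lost region. No gained region together with at least 1 lost region was found for 4.81% of the 2991 genes. At an FDR under 0.01, GRMZM2G174107 joined them and the count was 3 of 5 (28.7% over all rising genes); with a minimum of 2-fold it was 4 of 5 (46.1%), with GRMZM2G066413 the exception. Without base library A the count was 0, because neither OMT1 nor DCT1 was then called higher.

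Rising genes with no gained region started from higher acetylation. The median base signal at the highest region was 402.3 over the 713 such genes and 161.7 over the 2278 rising genes with a gain, and the base signal also enters each region's fold. Their median transcript change was smaller, 3.02 against 4.997 on the log2 scale. OMT1 (542.9) and DCT1 (834.7) lay above the upper quartile of 523.7 of the genes without gain. Among the carriers with a gain, the base signal of the highest region was 522.2 for DCT2, 287.0 for GRMZM2G174107 and 262.3 for GRMZM2G066413. Whether the base signal bears on a gain was not tested.

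**Figure D4:**
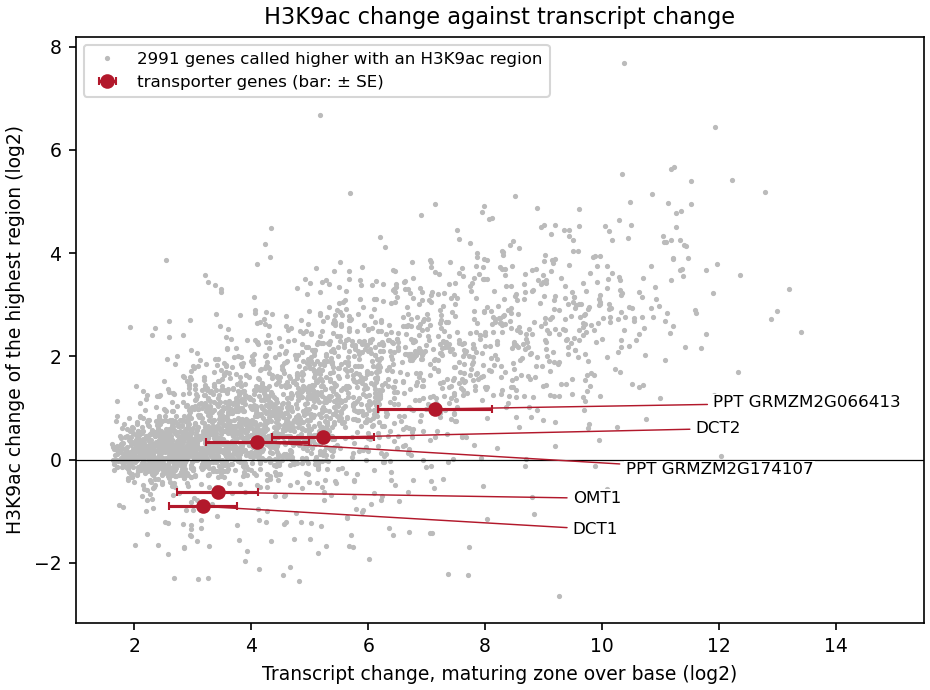
Log2 H3K9ac change of the region of highest mean signal against log2 transcript change, both maturing zone over base, for the 2991 genes called higher with an H3K9ac region (grey) and the 5 transporter genes (red, bars ± SE of the transcript change). OMT1 and DCT1 lie below 0 on the acetylation axis, at -0.63 and -0.91, and the other 3 genes lie between 0.34 and 0.98.

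Of 11 other C4 cycle genes 9 rose and 0 fell, with a median log2 change of 8.04. Over all genes tested 13.5% rose and the median was -0.13. With DESeq2 size factors in the edgeR fit 8 rose. The DESeq2 test, the fit without count filter and the replicate block each gave 10, and with the block 1 fell. NADP-malate dehydrogenase (GRMZM2G129513), which makes malate from the oxaloacetate that OMT1 brings into the chloroplast, rose by 5.28 ± 0.91 (edgeR adjusted p = 0.0171). NADP-malic enzyme (GRMZM2G085019), which uses the malate in bundle sheath chloroplasts, rose by 10.51 ± 1.99 on the log2 scale, and PPDK (GRMZM2G306345), which makes the PEP that PPT proteins carry, by 9.71 ± 2.30 (edgeR adjusted p = 0.0323, and 0.0544 with DESeq2 size factors, where its call was lost). PEP carboxylase (GRMZM2G083841), the user of that PEP, rose by 10.38 ± 1.59, and PEP carboxykinase PEPCK (GRMZM2G001696) had the largest change of the list with 11.93 ± 2.35. The lowest was the aspartate aminotransferase GRMZM2G146677 at -0.60 ± 0.48 (edgeR adjusted p = 0.387; with the replicate block -0.62 and 0.0333). PPCK1, a PEP carboxylase kinase, was at 3.20 ± 0.99 with an edgeR adjusted p of 0.0615 (with the replicate block 3.01 and 4.94e-06). In the authors' deposited table PPCK1 was 8.36-fold higher (FDR 0.0306). Leaving out maturing zone library B brought it to 1.66 (adjusted p = 0.267, edgeR), and leaving out base library B to 4.18 (0.00499). Single libraries also moved the sizes of called changes: PEPCK stood at 14.13 when base library A was left out, at 11.08 when base library B was, and at 10.90 when it was library B of the maturing zone. Likewise NADP-malic enzyme was at 12.02 without base library A and 9.76 without base library B, each still called. On the log2 scale the changes of OMT1 and DCT1 were smaller than that of NADP-malate dehydrogenase, but no test of that difference was made.

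Of 2 other envelope genes both rose, the envelope protein MEP1 (GRMZM2G138258) by 9.81 ± 1.67 and the triose phosphate/phosphate translocator GRMZM2G070605 by 6.49 ± 1.21 (edgeR adjusted p = 0.0166 and 0.0197), these 2 names coming from earlier maize work and not from the reference table. MEP1 was at 10.96 without base library A and at 9.15 without base library B. Among the 11 risers of both lists, 3 had no gained H3K9ac region, or 27.3%, near the 23.8% of all rising genes: NADP-malate dehydrogenase, the alanine aminotransferase GRMZM2G088064 and the triose phosphate/phosphate translocator. The single H3K9ac region of NADP-malate dehydrogenase was at -0.01 on the log2 scale. The 11 C4 cycle genes had 31 H3K9ac regions, with 25 gained, 2 lost and 4 left uncalled. Over all H3K9ac regions 33% gained and 33.8% lost. Of their 16 H3K4me3 regions 9 gained and 0 were lost, against 11.3% and 14.3% over all H3K4me3 regions. PEPC, PPDK, NADP-ME and PEPCK gained in every one of their H3K9ac regions, by at least 1.46 on the log2 scale. The single H3K4me3 region of NADP-ME was not called, at 0.52. The carbonic anhydrase genes GRMZM2G121878 and GRMZM2G348512 also gained in every H3K9ac region, from 0.50 and 0.80 upward. So did the PPDK regulator GRMZM2G131286, from 1.27 upward, while its single H3K4me3 region was not called, at 0.02. The alanine aminotransferase had a lost H3K9ac region at -1.91 and PPCK1 one at -0.85.

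Among 156 tested genes with a symbol in RefSeq, those nearest to each carrier in level and pattern were found by Euclidean distance of log2(TMM-scaled CPM + 1) over the 4 libraries. For OMT1 they were lox10 (distance 1.03) and GLG1 (1.21), and for DCT1 sfp3 (0.69) and SMK2 (0.87). For DCT2 they were GLG1 (1.19) and lox10 (2.47), for GRMZM2G174107 shbp1 (2.72) and GLG1 (3.13), and for GRMZM2G066413 PER42 (1.46) and CYP92C6 (2.25). Between 6 and 162 of all genes tested lay nearer than the gene named.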

How the data were processed

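Per the file headers, the deposited transcript table gives, for each library, whole-number counts of exon reads and RPKM values made by the authors, plus a signed fold change and an FDR (adjusted p-value) of the authors per gene. For each region the deposited ChIP tables list an average signal of normalized reads in either zone, a signed fold and the FDR. Although the headers name the fold base over maturing zone, its sign was positive where the maturing zone average was the higher in 100% of 43088 H3K9ac and 32354 H3K4me3 regions compared. Not given in the sources used here are the aligner, counter, peak caller, the scaling of these averages and the number of replicates behind them, and ChIP values therefore carry no error or depth. The submitters' processing notes name B73 RefGen_v3, edgeR, DiffBind 1.10.0, Trimmomatic 0.32 and CASAVA 1.8.2. Strandedness is not given, so reads of antisense or overlapping genes cannot be told apart.

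Counts of all genes were fitted with edgeR 4.0.16 in R 4.3.3 (filterByExpr with a minimum count of 10, scaling by TMM, quasi-likelihood test, Benjamini-Hochberg adjustment over 26787 genes, calls under 0.05). Standard errors come from the change and its F statistic. The fits were also run on simulated counts with few changed genes, as many up as down. That setting is unlike these data, so it does not bear on the calls given here. Nothing was refitted on ChIP regions. The labels describe each replicate as a pool of plants and both zones as cut from the same leaves, which pairs the zones within a pool; that equal letters mean the same pool is not written there. Differences of A from B correlated between zones (r = 0.794 by Pearson over 26787 genes, not independent replicates), and a fit with the letter as replicate block served as an alternative. Other alternatives were DESeq2 1.42.0, its size factors, library totals, no count filter and leaving out each library. The genes and lists were chosen with earlier results of these data known. All 5 carriers are named; enzymes were named if paired with a carrier by substrate or at either end of their list. PPCK1, the regions of neighbouring genes, the genes without gain, and the alternatives that count rises without gain at other thresholds or in other fits, were chosen after their values were seen. The gene table has no descriptions, so the list of other envelope genes held 2 entries.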

Additional observations from a re-analysis of the deposited data

How the results depend on the processing

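In 45 refits of the 5 genes all changes stayed higher in the maturing zone and 42 kept their call. The exceptions, without base library A, were OMT1, DCT1 and the PPT gene GRMZM2G174107, so that 2 of the 5 were called. Leaving out 1 library in turn gave log2 changes of 3.02 to 3.99 for OMT1, 2.87 to 3.53 for DCT1, 4.63 to 5.61 for DCT2, 3.82 to 4.31 for GRMZM2G174107 and 6.54 to 8.15 for GRMZM2G066413. The number of members with a rise and no gain ranged from 0 to 2 in those fits, with 0 only without base library A, and was 4 with a 2-fold minimum. The replicate block changed no call of the 5 genes. Scaling by library totals moved the median of all genes by -1.14 on the log2 scale, and the 5 genes then stood at 2.08 (DCT1) to 5.98 (GRMZM2G066413).

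Over all genes 3605 were higher and 4229 lower. The replicate block called 9543 and 10820, library totals called 8300 lower, and leaving out 1 library gave 2624 to 3666 higher and 2584 to 3984 lower. With a 2-fold minimum 2 H3K9ac regions of the 5 genes gained and 0 lost, by the authors' FDR. Summed, highest and length-weighted signal could not differ in direction. Each gene had either a single region of a mark or regions of it that all moved the same way. A version limited to regions within a set distance of the gene was not run, since the tables hold no distance. The lowest count of the 5 genes in a library was 89 reads, and the depth behind ChIP averages is unknown.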
